A study of Cucumis sativus with 12 samples.

Results

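The comparison described here is that of cucumber (Cucumis sativus) leaves after 12 h of cold with leaves after 3 h of cold, the middle interval of a cold time course. It covers every gene with at least 1 FPKM (fragments per kilobase of transcript, scaled to library depth) in at least 3 of the 6 libraries, which are 15685 of the 24317 genes in the deposited table, and 10672 of these carry an informative description. Both groups came from seedlings that had received a spray of chitosan oligosaccharide (COS) at 50 mg/L, had then stayed warm (28 °C by day, 18 °C by night) for 24 h and had been moved to 12 °C by day and 6 °C by night. COS is a mixture of short chitosan chains. The 12 h group has 3 libraries and so has the 3 h group. Libraries of 0 h (3) and 24 h (3) of cold serve below only to show levels on either side. Sprayed seedlings are the only ones analysed here, so the comparison shows time in the cold after the spray and not what the spray did. RNA came from fully expanded leaves, the second and the third, of seedlings grown in a 12 h light and 12 h dark cycle. No source used here gives the hour of sampling. Time in the cold, time since the spray and time of day, with its light and temperature, therefore cannot be told apart between 12 h and 3 h.

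Leaves keep time with a circadian clock. In it, morning genes such as LHY, pseudo-response regulators (APRR) and evening genes such as GIGANTEA repress or sustain each other. They pass the time on to genes for light harvesting, starch and growth. Cold acts on plants through transcription factors of the DREB1 (CBF) family and their activator ICE1, through calcium and abscisic acid signals, and through slower work on membranes, ribosomes and the photosynthetic apparatus. Phosphate supply is sensed by SPX domain proteins, and when it runs short leaves turn on genes that free phosphate from phospholipids and pyrophosphate. These are background facts, mostly from Arabidopsis, and the cucumber genes below are named by the descriptions in the deposited table.

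The 6 libraries held 62.7 to 74.3 M units of estimated counts (M, 10 to the power of 6), or at least 16.9 M fragments each if the spacing of low values is taken as 1 fragment. Log2 counts, scaled as for the test (TMM), correlated at 0.9846 to 0.9884 across genes between libraries of the same duration. Between durations they correlated at 0.9004 to 0.9073 (genes are not independent replicates). Whether replicate libraries are separate plants is not in the labels. P-values therefore describe spread among libraries only, and that spread may be technical. Of the 15685 genes, 228 reached 1 FPKM only in the 12 h group and 317 only in the 3 h group, so their groups were bound to differ in FPKM. Of these 545 genes, 519 passed the test given below. The 664 genes that reached 1 FPKM in exactly 3 libraries had a median of 1.104 FPKM, and the 385 that reached it in 2 and were left out had a median of 0.847 FPKM.

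The interval touched most of the expressed genome, with a balance of directions that depended on how libraries were scaled. At 12 h, 10019 genes (63.9%) differed from 3 h, 4992 (31.8%) upward and 5027 (32.0%) downward, by edgeR's quasi-likelihood test with a Benjamini-Hochberg adjusted p below 0.05, which is what "rose", "fell" and "changed" mean throughout. Most changes were small: the median absolute log2 fold change was 0.43 over all genes and 0.68 over those that changed. A change of at least 2-fold was found for 1509 genes upward (9.62%) and 1563 downward (9.96%), and of at least 4-fold for 775 (4.94%), 442 upward (2.82%) and 333 downward (2.12%). All 12 h libraries lay above all 3 h libraries in FPKM for 5024 genes (32.0%) and below them for 5944 (37.9%). Requiring 1 FPKM in both groups left 15140 genes, of which 4726 rose and 4758 fell. With library totals as the scaling 4485 genes rose and 5614 fell, and with upper quartile scaling 4612 rose and 5463 fell. Near-equal numbers in both directions were found with the scaling used for the test (TMM), with RLE (another scaling) and with DESeq2. Library totals, upper quartile scaling and the limma fits on log2 FPKM gave more falls than rises. List counts below are to be read against the shares of all genes, 31.8% upward and 32.0% downward.

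**Figure D1:**
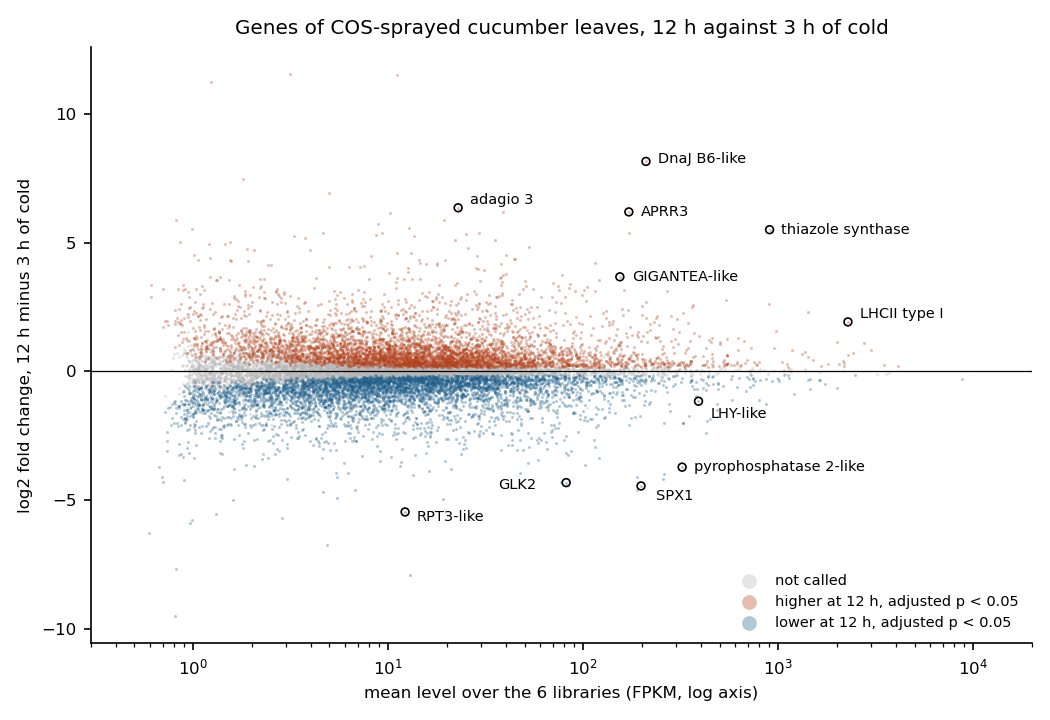
Log2 fold change (12 h minus 3 h of cold) of each of the 15685 genes against its mean FPKM over the 6 libraries (log axis). Red and blue points are genes that rose (4992) or fell (5027), grey points genes that did not pass the test, and circles mark genes of the text; the fitted fold of a gene with no count in its lower group is no measure of size.

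Clock genes held several of the largest changes. APRR3 (CsaV3_5G000090, chromosome 5, 54545 to 59025, whole-gene span in the deposited table, plus strand), a pseudo-response regulator, had 339.9, 342 and 332 FPKM in the 12 h libraries, against 5.38, 3.86 and 5.10 FPKM in the 3 h libraries. The 12 h libraries stood far above, with no overlap, and APRR3 rose by 6.19 on the log2 scale (SE 0.12, edgeR adjusted p = 9.82e-11), or 73.0-fold. Adagio protein 3 (CsaV3_5G014370, chromosome 5, 11354924 to 11358437, minus strand), an F-box protein with a blue-light-sensing domain whose Arabidopsis relative FKF1 works with GIGANTEA in day-length timing, had 44.7, 44.8 and 45.7 FPKM at 12 h, against 0.722, 0.406 and 0.576 FPKM at 3 h. It reached 1 FPKM only at 12 h and so was bound to differ (log2 fold change 6.35, SE 0.14). GIGANTEA-like (CsaV3_6G005020, chromosome 6, 4242681 to 4253277, plus strand) had 291, 286 and 278 FPKM at 12 h, against 24.3, 21.6 and 23.8 FPKM at 3 h. It rose 12.7-fold (log2 fold change 3.67, SE 0.07, edgeR adjusted p = 5.86e-11).

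Other clock genes rose as well. JMJD5 (CsaV3_1G042600), a histone demethylase tied to the clock in Arabidopsis, had 60.1, 57.0 and 53.1 FPKM at 12 h, against 2.18, 0.617 and 1.45 FPKM at 3 h, but its span overlaps a gene on the same strand, so its reads are uncertain. EARLY FLOWERING 3 on chromosome 2 (CsaV3_2G025750), a part of the evening complex, rose by 1.58 (SE 0.08) on the log2 scale, with 15.7, 15.2 and 15.8 FPKM at 12 h and 5.62, 5.64 and 4.92 FPKM at 3 h. It overlaps a gene on the opposite strand, and the strand setting of the counting is not known here. APRR5 (CsaV3_5G002610) had 2.80, 2.57 and 2.04 FPKM at 12 h and no count in any 3 h library, so no fold is given. The PCL1-like genes, relatives of the evening complex factor LUX, stayed low: CsaV3_4G029340 averaged 7.02 ± 1.24 FPKM at 12 h and 3.46 ± 0.172 FPKM at 3 h (SD, n = 3), and the other 3 tested averaged 2.83 to 3.93 FPKM at 12 h and 0.0860 to 0.154 FPKM at 3 h. Of these, CsaV3_7G009940 and CsaV3_6G016650 have the same 3 FPKM values at 3 h, so reads may be shared between near-identical copies, and they count as uncertain.

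Some clock genes fell. LHY-like (CsaV3_6G008360, chromosome 6, 6710104 to 6724393, plus strand), a MYB-like repressor that peaks near dawn in Arabidopsis, had 243, 229 and 234 FPKM at 12 h, against 558, 537 and 541 FPKM at 3 h. Its log2 fold change was -1.16 (SE 0.05, edgeR adjusted p = 1.64e-08). Its groups did not overlap, although the gene's span overlaps another on the same strand. REVEILLE 8-like (CsaV3_3G035450), a related factor, had 68.4, 57.2 and 61.2 FPKM at 12 h and 135, 118 and 129.9 FPKM at 3 h (log2 fold change -0.99, SE 0.08). REVEILLE 6 (CsaV3_3G008670, overlapping an opposite-strand gene) fell by 0.50 and REVEILLE 1-like (CsaV3_5G020580) by 0.47 on the log2 scale (not called when all 12 libraries were fitted), whereas REVEILLE 6-like (CsaV3_5G001040) rose by 1.27.

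Paralogous clock genes moved unequally. APRR7 on chromosome 4 (CsaV3_4G024430) had 177, 174 and 175 FPKM at 12 h and 43.9, 36.7 and 43.1 FPKM at 3 h, a rise of 2.14 (SE 0.08) on the log2 scale. APRR7 on chromosome 5 (CsaV3_5G000530) had 39.3, 52.4 and 51.7 FPKM at 12 h and 56.2, 68.8 and 63.2 FPKM at 3 h. It fell by 0.34 on the log2 scale (SE 0.11, edgeR adjusted p = 0.0232). That small fall was no longer called when 12 h library 1, 3 h library 2 or 3 h library 3 was left out (log2 fold changes of -0.21, -0.27 and -0.33) or when all 12 libraries were fitted. The second GIGANTEA gene (CsaV3_7G024490), which overlaps a gene on the same strand, averaged 9.26 ± 0.508 FPKM at 12 h and 10.7 ± 1.12 FPKM at 3 h and did not pass the test (edgeR adjusted p = 0.129), and the second EARLY FLOWERING 3 gene (CsaV3_7G034990, overlapping an opposite-strand gene) averaged 34.3 ± 3.06 FPKM at 12 h and 37.6 ± 3.80 FPKM at 3 h (adjusted p = 0.425). The difference between paralogs was not tested itself.

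Of 24 clock genes tested, 13 rose (54.2%, against 31.8% of all genes) and 6 fell (25.0%, against 32.0%), with a median log2 fold change of 0.72 beside -0.00 over all genes. Among the 19 at 1 FPKM or more in both groups, 8 rose. The 5 members that did not reach the level, among them APRR9, had at most 0.107 FPKM in any of the 6 libraries. APRR1 (CsaV3_1G005680, TOC1 in Arabidopsis) rose by 0.37 (SE 0.11, edgeR adjusted p = 0.0109), a call that was lost without 12 h library 3 (0.30), and APRR2 (CsaV3_3G002030) fell by 0.36. ELF4-LIKE 4, adagio protein 1 and XAP5 CIRCADIAN TIMEKEEPER did not pass the test and had log2 fold changes of 0.04, 0.13 and 0.19. The upward lean of the list was not seen over the 77 genes with the KEGG term for plant circadian rhythm. Of those, 29 rose (37.7%, against 31.8% of all genes) and 31 fell (40.3%, against 32.0%), with a median log2 fold change of -0.08.

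**Figure D2:**
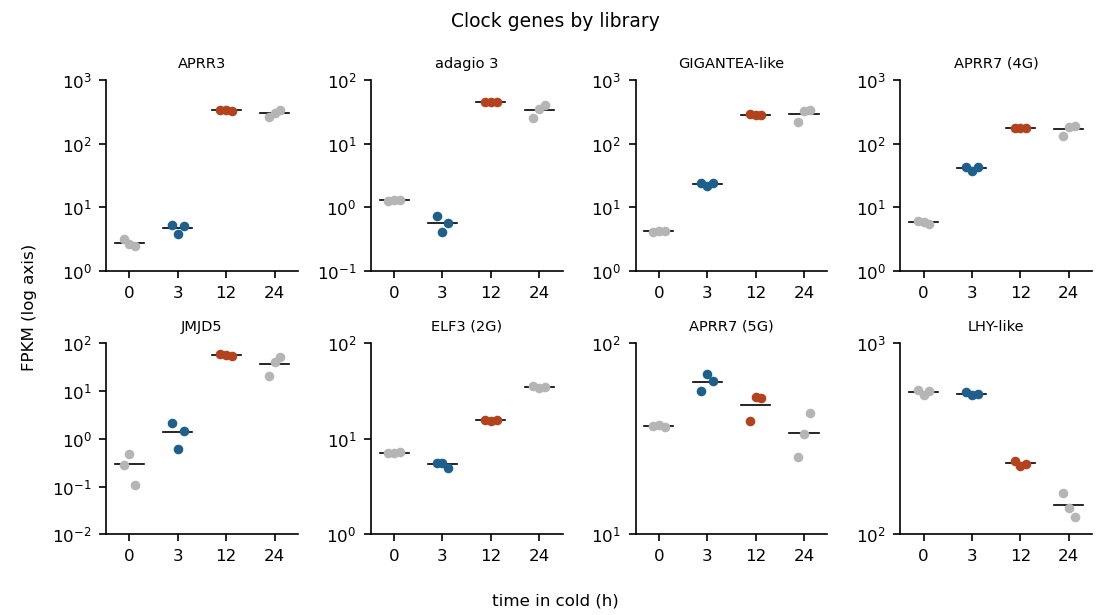
FPKM (log axis) of 8 clock genes in each of the 12 libraries at 0, 3, 12 and 24 h of cold; points are libraries (12 h red, 3 h blue, 0 h and 24 h grey) and bars are group means. APRR3, adagio 3, GIGANTEA-like, APRR7 (4G), JMJD5 and ELF3 (2G) lie higher at 12 h than at 3 h in every library, and APRR7 (5G) and LHY-like lie lower.

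Across the 4 durations, APRR3 averaged 2.79, 4.78, 338 and 300.4 FPKM at 0, 3, 12 and 24 h, and GIGANTEA-like 4.26, 23.2, 285 and 291 FPKM. LHY-like averaged 555, 545, 235 and 142 FPKM over the same times. Their 24 h means stayed on the 12 h side of the 3 h means.

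Light signalling genes fell more often than they rose, 26 of 47 (55.3%) against 12 (25.5%), with a median log2 fold change of -0.32. The lowest log2 fold change of the list was that of a root phototropism protein 3-like gene (CsaV3_1G039050), a relative of an adaptor of phototropin blue-light receptors, with 0.601, 0.495 and 0.464 FPKM at 12 h, against 23.7, 24.9 and 23.1 FPKM at 3 h. It reached 1 FPKM only at 3 h and so was bound to differ (log2 fold change -5.46, SE 0.11), and it averaged 101 FPKM at 0 h. The phytochrome A-associated F-box gene (CsaV3_4G000750) had 8.35, 8.24 and 10.1 FPKM at 12 h and 51.5, 48.9 and 48.7 FPKM at 3 h (log2 fold change -2.43, SE 0.09). Moving the other way, CONSTANS-LIKE 14-like (CsaV3_4G002870), a zinc finger regulator, had 63.9, 72 and 69.7 FPKM at 12 h and 6.31, 8.21 and 6.11 FPKM at 3 h (log2 fold change 3.37, SE 0.11). The PIF1-like bHLH factor (CsaV3_3G028610) averaged 8.57 ± 0.838 FPKM at 12 h and 1.34 ± 0.371 FPKM at 3 h.

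Genes for the light-harvesting antenna of photosystem II stood out by amount. One of the 5 most abundant genes that rose at least 2-fold, CsaV3_6G013800 (LHCII type 1-like, chromosome 6, 9988814 to 9990198, plus strand), had 3888, 3607 and 3719.9 FPKM at 12 h and 1849.7, 1705 and 1838 FPKM at 3 h. Its log2 fold change was 1.10 (SE 0.06, edgeR adjusted p = 4.18e-08). CsaV3_6G051530 (LHCII type I-like) had 3654, 3543 and 3529 FPKM at 12 h and 1037, 882 and 1015 FPKM at 3 h, and its neighbour CsaV3_6G051520 had 2769, 2654 and 2692 FPKM at 12 h and 1308, 1219.8 and 1327 FPKM at 3 h. Every 12 h library was above every 3 h library in all 3 genes. Larger ratios came from lower genes: CsaV3_3G031580 had 2402, 2179 and 2463 FPKM at 12 h and 543, 399 and 519 FPKM at 3 h (log2 fold change 2.32, SE 0.11), and CsaV3_1G032510 had 938, 831 and 1046 FPKM at 12 h and 156, 110.4 and 159.7 FPKM at 3 h (2.77, SE 0.14). These genes belong to a family with near-identical copies, so reads can be split between them and each single value is uncertain. Over the 20 genes with the KEGG term for antenna proteins, 15 rose (75.0%) and 1 fell (5.0%), with a median log2 fold change of 0.77.

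The 60 genes with the KEGG term for photosynthesis had the opposite balance, with 12 rises (20%), 27 falls (45.0%) and a median log2 fold change of -0.16. Among 57 photosystem, light-harvesting and thylakoid genes, which include the antenna genes above, 24 rose and 15 fell with a median log2 fold change of 0.05, which became -0.00 when libraries were scaled by their totals, and only 7 fell when 12 h library 2 or 3 h library 3 was left out. Their summed level was 47276 to 49817 FPKM at 12 h, above 34616 to 35902 FPKM at 3 h. Of 60 Calvin cycle and photorespiration genes 15 rose (9 when all 12 libraries were fitted) and 29 fell, with a summed level of 40894 to 44968 FPKM at 12 h and 46982 to 48367 FPKM at 3 h. A gene described as photosystem II protein D2 (CsaV3_4G026390, chromosome 4, 15671310 to 15671879, minus strand) fell. It had 12.2, 13.6 and 13.6 FPKM at 12 h and 22.0, 15.8 and 20.5 FPKM at 3 h. Whether this short gene on a nuclear chromosome stands for the reaction centre subunit was not tested. In bulk leaf RNA, fewer cells of a type and less RNA per cell cannot be told apart, and the antenna genes are at the same time markers of mesophyll: of 28 mesophyll markers 16 rose and 7 fell, and their summed level was 56229.9 to 60839 FPKM at 12 h and 47605 to 48437 FPKM at 3 h.

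Chlorophyll and carotenoid genes took both directions. Protochlorophyllide reductase (CsaV3_4G033870), the light-driven step of chlorophyll synthesis, had 279, 277 and 285 FPKM at 12 h and 107, 90.1 and 102 FPKM at 3 h (log2 fold change 1.54, SE 0.07). Chlorophyll(ide) b reductase NYC1 (CsaV3_1G024260), which starts the breakdown of chlorophyll b, had 174, 172 and 173 FPKM at 12 h and 22.5, 24.8 and 21.8 FPKM at 3 h (2.96, SE 0.07). STAY-GREEN LIKE (CsaV3_6G031220), of a family of chlorophyll-degrading proteins, had 37.0, 36.9 and 37.8 FPKM at 12 h and 111, 105 and 109.5 FPKM at 3 h (-1.50, SE 0.06). Phytoene synthase (CsaV3_5G020340), the entry to carotenoids, had 105, 113 and 127 FPKM at 12 h and 295, 282 and 312 FPKM at 3 h (-1.32, SE 0.08). Of the 65 chlorophyll and carotenoid genes tested, 17 rose and 26 fell. The KEGG term for porphyrin and chlorophyll metabolism had 24 rises and 15 falls in 56 genes. That for carotenoid biosynthesis had 19 rises and 26 falls in 54 genes. A GLK2 gene (CsaV3_6G003320, chromosome 6, 2554114 to 2557358, plus strand), of a family whose members turn on antenna and chlorophyll genes in Arabidopsis, had 7.75, 7.19 and 7.65 FPKM at 12 h and 149, 173 and 145 FPKM at 3 h. Its log2 fold change was -4.32 (SE 0.08, edgeR adjusted p = 8.48e-11). It averaged 40.8, 156, 7.53 and 131 FPKM at 0, 3, 12 and 24 h, while the antenna gene CsaV3_6G051530 averaged 245, 978, 3575 and 1443 FPKM.

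**Figure D3:**
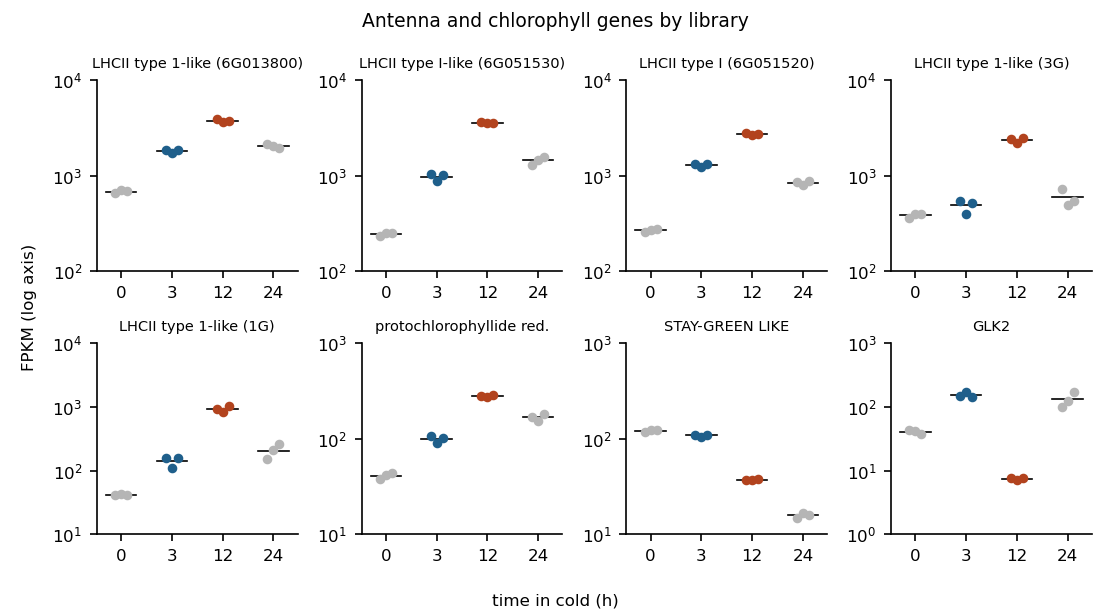
FPKM (log axis) of 5 antenna genes, protochlorophyllide reductase, STAY-GREEN LIKE and GLK2 in each library at 0, 3, 12 and 24 h of cold; points are libraries (12 h red, 3 h blue) and bars are group means. The 5 antenna genes have their highest mean at 12 h, where GLK2 has its lowest, 7.53 FPKM.

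Genes of carbon storage and export took both directions. LSF1 (CsaV3_3G042460), a phosphoglucan phosphatase-like protein that helps open starch granules, had 22.4, 22.5 and 22.0 FPKM at 12 h and 1.84, 2.20 and 1.79 FPKM at 3 h (log2 fold change 3.57, SE 0.09). A mitochondrial alkaline/neutral invertase A (CsaV3_3G015320), which splits sucrose, had 65.7, 66.5 and 63.5 FPKM at 12 h and 8.58, 9.23 and 9.08 FPKM at 3 h (2.91, SE 0.06). Beta-amylase 1 (CsaV3_2G012230), which frees maltose from starch, averaged 4.09 ± 0.501 FPKM at 12 h and 12.7 ± 1.29 FPKM at 3 h (-1.58, SE 0.12). Over 54 starch and sucrose genes, 21 rose and 18 fell (38.9% and 33.3%, against 31.8% and 32.0% of all genes). Sugar transporters fell in 17 of 34 cases and rose in 9, and their summed level was 514 to 531 FPKM at 12 h, below 975 to 1056 FPKM at 3 h. SWEET2 (CsaV3_4G032810, overlapping an opposite-strand gene) had 34.8, 27.2 and 29.3 FPKM at 12 h and 196, 186 and 209 FPKM at 3 h (-2.65, SE 0.09), a polyol transporter 5-like gene (CsaV3_2G014540) had 68.4, 62.0 and 60.9 FPKM at 12 h and 270.4, 291 and 278 FPKM at 3 h (-2.08, SE 0.06). SWEET17 (CsaV3_3G014800), a vacuolar fructose carrier in Arabidopsis, rose with 57.6, 59.3 and 60.4 FPKM at 12 h and 17, 13.5 and 18.8 FPKM at 3 h (1.89, SE 0.11). Of 27 raffinose, inositol and trehalose genes 6 rose and 10 fell (6 in the fit of all 12 libraries). Galactinol synthase 1-like (CsaV3_5G031520), the entry to raffinose synthesis, averaged 4.90 ± 0.489 FPKM at 12 h and 11.7 ± 1.63 FPKM at 3 h (-1.20, SE 0.13), a call not kept when all 12 libraries were fitted.

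Phosphate-saving genes held several of the largest falls. SPX domain-containing protein 1 on chromosome 1 (CsaV3_1G030190, 16941555 to 16944650, minus strand), of a family that binds inositol pyrophosphates and restrains phosphate starvation regulators, had 15.6, 17.7 and 17 FPKM at 12 h, against 376, 376 and 385 FPKM at 3 h. It was 21.8-fold lower at 12 h (log2 fold change -4.45, SE 0.07, edgeR adjusted p = 5.78e-11), with the groups far apart. Its relative on chromosome 2 (CsaV3_2G002890, overlapping an opposite-strand gene) had 21.3, 24.4 and 31.9 FPKM at 12 h and 483, 498 and 485 FPKM at 3 h (-4.19, SE 0.14). Glycerophosphodiester phosphodiesterase GDPD1 (CsaV3_3G026730, chromosome 3, 22977813 to 22980952, plus strand), which breaks down products of phospholipids, had 12.5, 13.3 and 17.4 FPKM at 12 h and 348, 393 and 354 FPKM at 3 h (-4.62, SE 0.13).

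Transport and pyrophosphate genes of the same list followed. A putative glycerol-3-phosphate transporter 1 (CsaV3_5G005700, chromosome 5, 3746216 to 3749567, minus strand) had 27.8, 26.8 and 35.5 FPKM at 12 h and 488, 483 and 489 FPKM at 3 h (log2 fold change -3.97, SE 0.11). Inorganic pyrophosphatase 2-like (CsaV3_7G034880, chromosome 7, 22066092 to 22068172, minus strand), a phosphatase that frees phosphate, had 39.8, 39.3 and 53.0 FPKM at 12 h and 585, 626 and 586 FPKM at 3 h (-3.72, SE 0.12). In all of these the 12 h libraries lay below the 3 h libraries. The ganglioside-induced differentiation-associated-protein 2 gene (GDAP2, CsaV3_2G024530), not in the list, had 5.99, 5.95 and 9.48 FPKM at 12 h and 151, 146 and 141 FPKM at 3 h (-4.30, SE 0.16), and it overlaps a gene on the opposite strand.

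Of 52 phosphate-saving genes tested, 30 fell (57.7%) and 11 rose (21.2%), with a median log2 fold change of -0.50, and 17 fell at least 2-fold. Their summed level was 988 to 1035 FPKM at 12 h, below 3814 to 3984 FPKM at 3 h. The direction was not uniform: the phosphate exporter PHO1 homolog 3-like (CsaV3_5G033010) had 22.7, 24.1 and 21.9 FPKM at 12 h and 4.04, 4.44 and 4.25 FPKM at 3 h (2.48, SE 0.07). Purple acid phosphatase 20 (CsaV3_6G040630) had 21.3, 19.8 and 19.3 FPKM at 12 h and 4.07, 4.50 and 3.01 FPKM at 3 h (2.43, SE 0.13). Over the time course the chromosome 1 SPX gene averaged 8.04, 379, 16.7 and 58.0 FPKM at 0, 3, 12 and 24 h, and GDPD1 5.34, 365, 14.4 and 166 FPKM, so that 3 h was the high point of both genes.

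**Figure D4:**
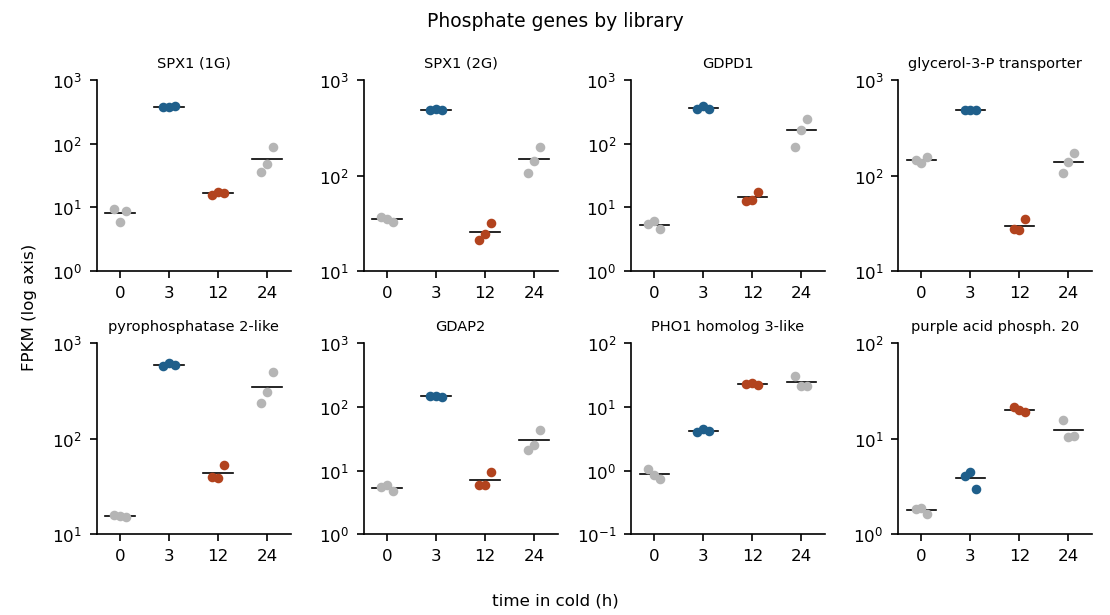
FPKM (log axis) of 8 genes in each library at 0, 3, 12 and 24 h of cold, all from the phosphate-saving list except GDAP2. Points are libraries (12 h red, 3 h blue) and bars are group means. The first 6 genes have their highest mean at 3 h and lie far below it at 12 h, while PHO1 homolog 3-like and purple acid phosphatase 20 lie higher at 12 h.

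Genes named for DREB, ICE or cold regulation took both directions, and their summed level was 648 to 668 FPKM at 12 h and 337 to 342 FPKM at 3 h. Most of the difference in the sum came from 2 genes. A cysteine proteinase (CsaV3_4G034650) averaged 331 FPKM at 12 h and 111 FPKM at 3 h, and ERD4 (CsaV3_6G052110) 99.0 and 11.1 FPKM. Of 15 tested, 6 rose (40%) and 4 fell (26.7%), with a median log2 fold change of 0.04 that turned to -0.02 with library totals as the scaling; 2 fell when 12 h library 2 or 3 h library 1 was left out. DREB1A (CsaV3_3G016760), a cold-induced activator, had 4.36, 2.36 and 2.15 FPKM at 12 h and 0.615, 0.274 and 0.459 FPKM at 3 h, and reached the level only at 12 h, so that it was bound to differ (log2 fold change 2.75, SE 0.36). The 2 other DREB1 genes of the list, DREB1B-like and DREB1E, had at most 1.09 FPKM in any of the 6 libraries and were not tested. Among 4 DREB2 genes tested, DREB2A-like on chromosome 4 (CsaV3_4G026910) had 30.5, 30.6 and 31.1 FPKM at 12 h and 18.9, 19.6 and 20.3 FPKM at 3 h (0.70, SE 0.07), its neighbour CsaV3_4G026790 rose by 0.84 but overlaps an opposite-strand gene, and DREB2C (CsaV3_6G002010) and a DREB2A-like gene (CsaV3_6G012590) did not pass the test, with log2 fold changes of 0.03 and -0.10.

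The ICE1 pair differed in its values. ICE1-like (CsaV3_1G009900) averaged 30.5 ± 0.874 FPKM at 12 h and 17.8 ± 0.708 FPKM at 3 h (log2 fold change 0.83, SE 0.06), whereas ICE1 (CsaV3_3G027730) averaged 16.6 ± 2.02 FPKM at 12 h and 16.7 ± 0.615 FPKM at 3 h (0.04, edgeR adjusted p = 0.707). Both overlap an opposite-strand gene, and the difference between them was not tested. The largest change of the list was in CSC1-like protein ERD4 (CsaV3_6G052110), a dehydration-responsive membrane protein, with 99.7, 98.3 and 99.0 FPKM at 12 h and 11.4, 11.1 and 11.0 FPKM at 3 h (3.20, SE 0.06, adjusted p = 5.86e-11). A low-temperature-induced cysteine proteinase (CsaV3_4G034650) had 327, 342 and 324 FPKM at 12 h and 114, 105 and 115 FPKM at 3 h (1.62, SE 0.06). A gene with the same description (CsaV3_7G008340) fell, averaging 12.5 ± 1.01 FPKM at 12 h and 19.1 ± 0.729 FPKM at 3 h (-0.56, SE 0.08, edgeR adjusted p = 8.24e-05). The plasma membrane protein COR413-PM2 (CsaV3_2G014340) averaged 43.7 ± 5.55 FPKM at 12 h and 58.2 ± 8.50 FPKM at 3 h, a fall of 0.36 on the log2 scale that was lost without 12 h library 2 (-0.30).

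Stress-associated zinc fingers of the ZAT family took both directions, with 3 of 8 rising and 3 falling (37.5% each, against 31.8% and 32.0% of all genes). ZAT10 (CsaV3_4G034970), a repressor induced by many stresses in Arabidopsis, had 283, 331 and 323 FPKM at 12 h and 124, 107 and 105 FPKM at 3 h (log2 fold change 1.53, SE 0.09). A ZAT10-like gene (CsaV3_2G026210) averaged 135 ± 15.3 FPKM at 12 h and 57.4 ± 13.4 FPKM at 3 h. ZAT12-like (CsaV3_5G006930) averaged 19.2 ± 1.92 FPKM at 12 h and 27.1 ± 3.72 FPKM at 3 h (-0.45, SE 0.13, edgeR adjusted p = 0.0108, not kept when all 12 libraries were fitted). Of 21 proline, polyamine and LEA protectant genes 7 rose (33.3%) and 4 fell (19.0%). LEA protein D-34 (CsaV3_3G013280), of a family of desiccation protectants, averaged 5.90 ± 0.429 FPKM at 12 h and 18.6 ± 0.30 FPKM at 3 h (-1.61, SE 0.11).

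A co-chaperone gene had the highest log2 fold change of the 273 named genes that had counts in both groups. A dnaJ homolog subfamily B member 6-like gene (CsaV3_5G028590, chromosome 5, 23698919 to 23700429, plus strand), whose family hands substrates to Hsp70, had 390.1, 433 and 431 FPKM at 12 h, against 1.40, 1.75 and 1.40 FPKM at 3 h. It was 285-fold higher at 12 h (log2 fold change 8.15, SE 0.11, edgeR adjusted p = 2.66e-11) and averaged 0.134, 1.52, 418 and 536 FPKM at 0, 3, 12 and 24 h. Heat stress transcription factor A-6b (CsaV3_3G012910, chromosome 3, 9871823 to 9874637, minus strand), an activator of heat shock genes, had 76.1, 82.0 and 71.2 FPKM at 12 h and 0.927, 1.2 and 1.13 FPKM at 3 h (6.18, SE 0.11). Its relative A-6b-like (CsaV3_7G027860) went the other way, with 19.9, 16.7 and 20.1 FPKM at 12 h and 73.9, 65.9 and 63.1 FPKM at 3 h (-1.79, SE 0.09). Over the families the picture was mixed, beside 31.8% of all genes rising and 32.0% falling. Of 58 heat shock and heat stress factor genes 26 rose (44.8%) and 17 fell (29.3%, median 0.11). Of 51 DnaJ genes 17 rose (33.3%) and 19 fell (37.3%, median -0.09). The 17.8 kDa class I heat shock protein-like gene (CsaV3_5G008700) averaged 6.27 ± 1.38 FPKM at 12 h and 25.8 ± 6.56 FPKM at 3 h (-1.98, SE 0.20). Chloroplast dnaJ 8-like (CsaV3_3G032730) had 32.6, 27.6 and 28.1 FPKM at 12 h and 130.3, 121 and 113 FPKM at 3 h (-1.99, SE 0.08).

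Genes for making and processing ribosomes rose as a group, mostly by small amounts. Of 62 ribosome biogenesis and nucleolar genes 54 rose (87.1%, against 31.8% of all genes) and 1 fell, ribosomal RNA-processing protein 14-C (CsaV3_1G000420), with a median log2 fold change of 0.66. Between 53 and 54 of them rose under each other setting run with the same genes. Nucleolin 1 (CsaV3_3G031420, chromosome 3, 27125139 to 27131641, minus strand), a main protein of the nucleolus, had 222, 225 and 226 FPKM at 12 h and 74.7, 76.7 and 73.7 FPKM at 3 h (1.63, SE 0.05, edgeR adjusted p = 2.45e-09). U3 small nucleolar RNA-associated protein 15 (CsaV3_7G028370), a factor of early rRNA processing, had 12.9, 13.5 and 13.6 FPKM at 12 h and 3.77, 3.77 and 3.54 FPKM at 3 h (1.9, SE 0.09). Cytosolic ribosomal proteins rose in 106 of 150 cases (70.7%) and fell in 5, with a median of 0.27 and 4 rises of 2-fold or more; 3 to 11 fell under the other settings (3 without 12 h library 3, 3 h library 1 or 3 h library 3). Their summed level was 26019 to 28609 FPKM at 12 h and 22649 to 23771 FPKM at 3 h. Among the falls were genes described as ribosomal protein L33 (CsaV3_7G024610) and ribosomal protein S18 (CsaV3_7G024620, -1.57, the lowest of the list). Their descriptions name no compartment, so they may not be cytosolic.

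RNA processing and protein turnover genes leaned the same way. Splicing factors and glycine-rich RNA-binding proteins rose in 36 of 64 cases and fell in 10 (median log2 fold change 0.25), and pentatricopeptide repeat proteins, which edit and process organelle RNA, rose in 113 of 286 and fell in 40 (median 0.22). Glycine-rich RNA-binding protein 4 (CsaV3_3G022690) had 71.9, 80.6 and 73.7 FPKM at 12 h and 30.2, 34.3 and 28.1 FPKM at 3 h (1.34, SE 0.08). Of 55 proteasome and autophagy genes 33 rose (60%) and 9 fell (median 0.30), for example the ubiquitin receptor RPN13 of the proteasome (CsaV3_2G009110), with 42.8, 41.7 and 42.9 FPKM at 12 h and 20.2, 20.3 and 18.4 FPKM at 3 h (1.16, SE 0.07). Autophagy-related protein 18h (CsaV3_1G039320) fell by 0.81 (SE 0.06). Plastid ribosomal proteins moved less, with 12 of 44 rising and 5 falling (3 without 12 h library 1), and of 68 mitochondrial respiration genes 17 rose and 9 fell (15 with library totals as the scaling). The KEGG terms for ribosome biogenesis (75 of 98 rose, 7 fell), proteasome (38 of 65, 9 fell) and spliceosome (96 of 200, 21 fell) include many of the same genes. Terms for DNA replication (9 of 57 rose, 28 fell) and homologous recombination (12 of 96 rose, 44 fell) had the opposite balance.

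**Figure D5:**
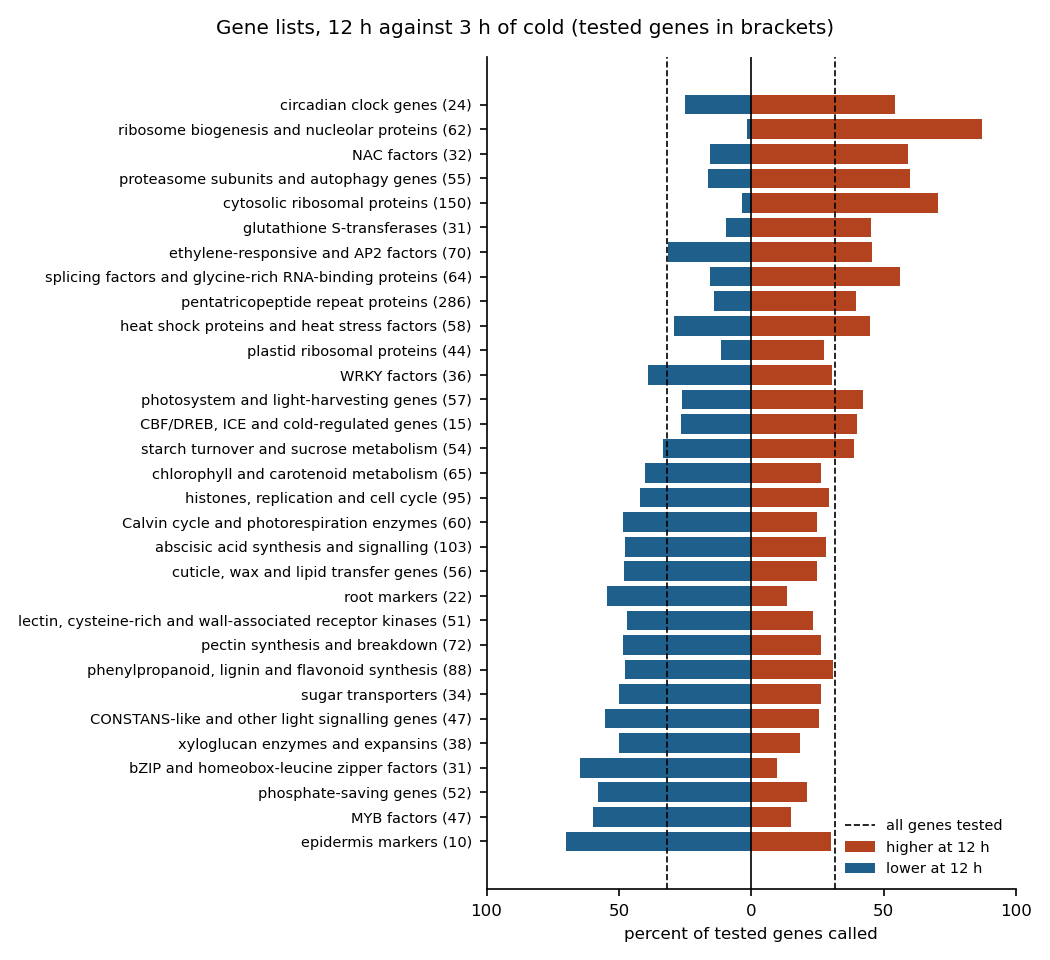
Percent of the tested genes of 31 lists that rose (right, red) or fell (left, blue) at 12 h against 3 h, ordered by median log2 fold change, with the number of genes tested in brackets; dashed lines mark the shares of all genes, 31.8% and 32.0%. Ribosome biogenesis (87.1% up) and cytosolic ribosomal proteins (70.7% up) lie far to the right, and bZIP and homeobox factors (64.5% down), MYB factors (59.6% down) and phosphate-saving genes (57.7% down) to the left.

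Transcription factor families gave unlike counts, whose differences were not tested. NAC factors rose in 19 of 32 cases and fell in 5 (median log2 fold change 0.44), and ethylene-responsive and AP2 factors rose in 32 of 70 and fell in 22 (median 0.25). MYB factors fell in 28 of 47 cases and rose in 7 (median -0.55), bZIP and homeobox-leucine zipper factors fell in 20 of 31 and rose in 3 (median -0.43), and bHLH factors fell in 28 of 61 and rose in 15. Among single genes, ethylene-responsive factor 4 (CsaV3_4G033470), a repressor, had 84.8, 112 and 79.8 FPKM at 12 h and 12.4, 6.28 and 6.64 FPKM at 3 h (3.50, SE 0.24). CRF2-like (CsaV3_5G002210), of the cytokinin response factors, had 51.8, 54.1 and 52.6 FPKM at 12 h and 3.17, 3.44 and 3.42 FPKM at 3 h (4.03, SE 0.07). MYB1R1 (CsaV3_5G032040) had 11.0, 13.9 and 13.8 FPKM at 12 h and 75.5, 67.5 and 75.8 FPKM at 3 h (-2.45, SE 0.10). ATHB-6 (CsaV3_6G045240), a homeobox factor that dampens abscisic acid responses in Arabidopsis, had 160.3, 162 and 154 FPKM at 12 h and 390.5, 387 and 391 FPKM at 3 h (-1.25, SE 0.05). bHLH35-like (CsaV3_2G008770) had 12.4, 8.23 and 8.13 FPKM at 12 h and 80.7, 80.4 and 85.0 FPKM at 3 h (-3.05, SE 0.14). WRKY factors were divided, 11 rising (30.6%, against 31.8% of all genes) and 14 falling (38.9%, against 32.0%) of 36. WRKY51 (CsaV3_6G042280, overlapping an opposite-strand gene) averaged 2.48 ± 0.623 FPKM at 12 h and 21.0 ± 6.20 FPKM at 3 h (-3.03, SE 0.23). WRKY31 (CsaV3_7G003470) had 53.1, 54.8 and 51.5 FPKM at 12 h and 16.3, 19.6 and 15.1 FPKM at 3 h (1.70, SE 0.09).

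Abscisic acid genes fell in 49 of 103 cases (47.6%) and rose in 29 (28.2%). A PYL4-like receptor gene (CsaV3_3G033450) had 9.21, 8.42 and 9.29 FPKM at 12 h and 47.0, 47.2 and 44.8 FPKM at 3 h (log2 fold change -2.32, SE 0.07). Among the phosphatases that act against the hormone's kinases, both PP2C 24 genes rose: CsaV3_1G034580 had 120.4, 138 and 126 FPKM at 12 h and 12.8, 12.3 and 11.9 FPKM at 3 h (3.43, SE 0.07), and CsaV3_1G035680 had 53.0, 57.8 and 51.2 FPKM at 12 h and 5.20, 3.87 and 5.68 FPKM at 3 h (3.50, SE 0.13). PP2C 75 (CsaV3_3G016530, overlapping an opposite-strand gene) fell, with 24.3, 22.1 and 22.2 FPKM at 12 h and 117, 119 and 108 FPKM at 3 h (-2.28, SE 0.07). The PP2C 24 gene CsaV3_1G034580 averaged 72.6, 12.3, 128 and 22.5 FPKM at 0, 3, 12 and 24 h, a pattern in which the 12 h level was the highest and the 3 h level the lowest.

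Other signalling lists are given beside the shares of all genes, 31.8% rising and 32.0% falling, which several of them were near. Calcium sensors, kinases and channels rose in 39 of 129 cases (30.2%) and fell in 48 (37.2%), and MAP kinase genes in 8 (24.2%) and 14 (42.4%) of 33. Auxin genes rose in 24 of 73 cases (32.9%) and fell in 32 (43.8%), and gibberellin and brassinosteroid genes in 9 (33.3%) and 11 (40.7%) of 27. Both CIPK14-like genes on unplaced sequence, for kinases that act with calcium sensors, fell: CsaV3_UNG100750 had 16.6, 12.9 and 14.3 FPKM at 12 h and 186, 203 and 176 FPKM at 3 h (log2 fold change -3.64, SE 0.10), and CsaV3_UNG100740 averaged 7.89 ± 1.67 FPKM at 12 h and 68.3 ± 3.91 FPKM at 3 h. Both overlap an opposite-strand gene, and they may share reads. MAP kinase 19 (CsaV3_4G007970) had 78.9, 73.4 and 76.8 FPKM at 12 h and 295, 244 and 288 FPKM at 3 h (-1.81, SE 0.08). Jasmonate genes rose in 14 of 34 cases (41.2%) and fell in 10 (29.4%), with a summed level of 926 to 991 FPKM at 12 h and 651 to 690.2 FPKM at 3 h, among the risers TIFY 6B (CsaV3_1G007260), of the JAZ repressors, with 54.7, 50.3 and 46.6 FPKM at 12 h and 13.7, 15.1 and 15.4 FPKM at 3 h. Ethylene synthesis and signalling genes fell in 12 of 25 cases and rose in 4, and cytokinin genes rose in 14 of 35 (40%) and fell in 11 (31.4%). The cytokinin-activating enzymes of the LOG family split, LOG8 (CsaV3_4G035760) rising by 2.09 (SE 0.11) and LOG3 (CsaV3_6G039600) falling by 1.91 (SE 0.07) on the log2 scale.

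Cell wall and cell cycle genes fell more often than they rose. Xyloglucan enzymes and expansins, which loosen walls, fell in 19 of 38 cases (50.0%, against 32.0% of all genes) and rose in 7 (18.4%, against 31.8%), and their summed level was 569.6 to 701 FPKM at 12 h, below 1320 to 1661 FPKM at 3 h. Expansin-A8 (CsaV3_6G002280) was its most abundant named member, with 194, 153 and 120.3 FPKM at 12 h and 480.5, 648 and 488 FPKM at 3 h (log2 fold change -1.74, SE 0.16, edgeR adjusted p = 4.31e-06). GAST1 (CsaV3_3G042990), a small gibberellin-responsive protein, had 1.32, 1.19 and 0.897 FPKM at 12 h and 32.6, 41.4 and 37.5 FPKM at 3 h (-4.97, SE 0.15). Auxin-induced protein 15A (CsaV3_2G015380), of the SAUR growth proteins, had 10.5, 9.68 and 8.76 FPKM at 12 h and 60.3, 85.9 and 70.8 FPKM at 3 h (-2.85, SE 0.15). Among pectin genes 35 of 72 fell and 19 rose, with a summed level of 834 to 885 FPKM at 12 h and 994 to 1085 FPKM at 3 h. Among genes of cellulose and other wall polymers 34 of 74 fell (45.9%) and 18 rose, yet the sum was higher at 12 h, at 1686 to 1784 FPKM, than at 3 h, at 1427 to 1459 FPKM. Histone, replication and cell cycle genes fell in 40 of 95 cases (42.1%) and rose in 28, and their sums overlapped, at 1691 to 1768 FPKM at 12 h and 1739 to 1756 FPKM at 3 h. Cyclin-D6-1 (CsaV3_6G012330) had 8.17, 8.52 and 7.66 FPKM at 12 h and 41.5, 43.4 and 44.3 FPKM at 3 h (-2.36, SE 0.07), while the cyclin-D3-3-like gene (CsaV3_2G026460) averaged 5.48 ± 0.165 FPKM at 12 h and 1.18 ± 0.169 FPKM at 3 h.

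Surface lipid genes fell more often than they rose, but their summed level overlapped, at 4520.2 to 4945 FPKM at 12 h and 4003 to 4719 FPKM at 3 h. Of 56 cuticle, wax and lipid transfer genes 27 fell (48.2%, against 32.0% of all genes) and 14 rose (25.0%, against 31.8%), and the KEGG term for cutin, suberine and wax had 10 falls and 2 rises in 20 genes. SHINE 2 (CsaV3_3G046440), an activator of wax and cutin genes in Arabidopsis, had 6.57, 7.56 and 5.56 FPKM at 12 h and 40.5, 46.1 and 41.7 FPKM at 3 h (log2 fold change -2.65, SE 0.11). 3-ketoacyl-CoA synthase 19 (CsaV3_3G012730), which lengthens fatty acids for wax, had 11.7, 10.3 and 9.82 FPKM at 12 h and 54.4, 50.6 and 53.1 FPKM at 3 h (-2.27, SE 0.08). The cutin-type hydroxylases CYP77A3-like (CsaV3_6G004090) and CYP86A7 (CsaV3_5G002710) fell by 1.84 and 1.96 on the log2 scale. The 10 epidermis markers tested, 3-ketoacyl-CoA synthases that belong to the cuticle list too, had 7 falls and 3 rises, and their summed level was 141 to 143 FPKM at 12 h and 262 to 277 FPKM at 3 h. MERISTEM L1 stayed at or below 0.109 FPKM and a 3-ketoacyl-CoA synthase 21-like gene was at 0 in all 6 libraries. The part of cell composition in these values was not tested. Fatty acid synthesis and desaturation genes fell in 17 of 44 cases and rose in 7, among the falls fatty acid desaturase 4 (CsaV3_3G005230, overlapping an opposite-strand gene), with 41.2, 47.6 and 48.8 FPKM at 12 h and 166, 164 and 186 FPKM at 3 h (-1.86, SE 0.09).

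Detoxification genes leaned upward and phenylpropanoid genes downward. Glutathione S-transferases rose in 14 of 31 cases (45.2%) and fell in 3 (9.68%; 5 fell without 3 h library 3), with a median log2 fold change of 0.25. U9-like (CsaV3_1G005440), the most abundant of those named, had 215, 219.7 and 190 FPKM at 12 h and 46.8, 51.8 and 35.4 FPKM at 3 h (2.27, SE 0.12). Of 88 phenylpropanoid, lignin and flavonoid genes 42 fell and 27 rose. A phenylalanine ammonia-lyase-like gene (CsaV3_6G039700), the entry enzyme of the pathway, had 14.5, 15.8 and 15.0 FPKM at 12 h and 98.1, 83.8 and 97.2 FPKM at 3 h (-2.58, SE 0.08), while anthocyanidin 3-O-glucosyltransferase 2-like (CsaV3_4G032430), which attaches glucose to anthocyanins, had 323, 334 and 361 FPKM at 12 h and 81.5, 88.3 and 77.3 FPKM at 3 h (2.09, SE 0.07). Cytochrome P450 genes were divided, 27 rising (39.1%, against 31.8% of all genes) and 24 falling (34.8%, against 32.0%) of 69. CYP71A1-like CsaV3_1G009100 had 69.6, 52.5 and 52.2 FPKM at 12 h and 3.52, 3.23 and 5.01 FPKM at 3 h (3.93, SE 0.17). Other antioxidant genes fell in 35 of 92 cases and rose in 21; GDP-L-galactose phosphorylase 1 (CsaV3_7G022020), a control point of ascorbate synthesis, had 506, 490 and 479 FPKM at 12 h and 1135, 1077 and 1119 FPKM at 3 h (-1.13, SE 0.05). Secreted peroxidases rose in 7 of 23 cases (30.4%) and fell in 9 (39.1%).

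COS is an elicitor of plant defence, but only sprayed seedlings are analysed here. The defence values below therefore show the difference between 12 h and 3 h and not an effect of COS. Of 77 chitinase, LysM receptor and defence genes 22 rose (28.6%, against 31.8% of all genes) and 30 fell (39.0%, against 32.0%), and their summed level was 1115 to 1197 FPKM at 12 h and 865 to 913 FPKM at 3 h. Of 51 lectin, cysteine-rich and wall-associated receptor kinases 12 rose (23.5%) and 24 fell (47.1%), and the sum was 289 to 329 FPKM at 12 h and 418 to 439 FPKM at 3 h. Thaumatin-like protein 1b (CsaV3_2G029590), of an antifungal family, had 34.4, 42.2 and 35.4 FPKM at 12 h and 1.72, 2.25 and 1.75 FPKM at 3 h (log2 fold change 4.34, SE 0.12), while a gene with the same description (CsaV3_2G015880) averaged 7.56 ± 0.798 FPKM at 12 h and 24.4 ± 1.68 FPKM at 3 h (-1.64, SE 0.10). Pathogenesis-related protein PR-1 (CsaV3_1G031270) averaged 1.03 ± 0.0838 FPKM at 12 h and 6.95 ± 1.26 FPKM at 3 h (-2.70, SE 0.18).

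The summed level of nitrogen genes was lower at 12 h. Of 60 genes 19 rose and 24 fell, and the sum was 2473 to 2623 FPKM at 12 h and 4558 to 5036 FPKM at 3 h. A nitrate reductase-like gene (CsaV3_2G026770, chromosome 2, 18380580 to 18381387, minus strand), which reduces nitrate to nitrite, had 40.1, 197 and 155 FPKM at 12 h and 631, 814 and 718 FPKM at 3 h. The 12 h libraries were all lower but spread widely (log2 fold change -2.41, SE 0.43, edgeR adjusted p = 0.000594). An ammonium transporter 1 member 2-like gene (CsaV3_2G010040) had 11.5, 11.2 and 12.3 FPKM at 12 h and 95.3, 81.5 and 103 FPKM at 3 h (-2.95, SE 0.10). Aquaporins rose in 7 of 20 cases and fell in 6 (3 in the fit of all 12 libraries), TIP1-1-like (CsaV3_3G036190), of the vacuolar membrane, rising by 2.09 (SE 0.09) and PIP2-1-like (CsaV3_6G039530), of the plasma membrane, falling by 1.31 (SE 0.15) on the log2 scale.

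A few of the largest changes belong to none of these groups. Thiamine thiazole synthase (CsaV3_3G005340, chromosome 3, 4460414 to 4462644, minus strand), which makes the thiazole ring of vitamin B1 in chloroplasts, had 1875, 1725 and 1696 FPKM at 12 h and 46.0, 36.4 and 38.4 FPKM at 3 h. It rose 45.3-fold (log2 fold change 5.50, SE 0.10, edgeR adjusted p = 5.86e-11) and averaged 50.3, 40.3, 1765 and 1335 FPKM at 0, 3, 12 and 24 h. A universal stress protein A-like gene (CsaV3_4G001170) had 308, 379 and 315 FPKM at 12 h and 8.26, 8.94 and 7.94 FPKM at 3 h (5.37, SE 0.10). The RING1-like ubiquitin ligase (CsaV3_5G032780) had 212, 231 and 213 FPKM at 12 h and 12.2, 12.0 and 12.2 FPKM at 3 h (4.22, SE 0.07). U-box and RING-H2 ligases as a class rose in 24 of 81 cases (29.6%) and fell in 29 (35.8%), and F-box proteins in 49 (34.8%) and 52 (36.9%) of 141. Both classes lay near the shares of all genes, 31.8% and 32.0%.

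Markers of other leaf and root cells moved as follows, beside 31.8% of all genes rising and 32.0% falling. Of 5 phloem markers 2 rose (1 in the fit of all 12 libraries) and 3 fell, with a summed level of 67.3 to 77.2 FPKM at 12 h and 83.7 to 89.2 FPKM at 3 h. Of 13 genes of the guard cell list 2 rose (15.4%) and 5 fell (38.5%), and the sums overlapped, at 105 to 116 FPKM at 12 h and 101 to 108 FPKM at 3 h. The 2 that rose, and CsaV3_7G026610, which fell, are described as EPIDERMAL PATTERNING FACTOR-like proteins, so this list does not stand for guard cells alone. Of 22 genes named for root or Casparian strip 3 rose and 12 fell, with sums of 235 to 238 FPKM at 12 h and 284 to 315 FPKM at 3 h, but Casparian strip membrane protein 1, which defines root endodermis, was at 0 in all 6 libraries. SPEECHLESS, a stomatal lineage factor placed in the guard cell list, stayed at or below 0.180 FPKM. The 33 housekeeping genes (actin, tubulin, elongation factor and the like) included 14 that rose and 9 that fell, with a median log2 fold change of 0.01 that was -0.05 with library totals as the scaling.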

How the data were processed

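Adapters were trimmed with cutadapt 1.9 and read quality seen in FastQC (both named in the submitters' processing notes). The series design text names HISAT2 and a CuGenDB cucumber genome for mapping. No source used here names the counter, annotation release, build or strand setting. The authors deposited estimated counts per gene as whole numbers, whose lowest values lie about 3.72 units apart, so a unit may not be a fragment. The authors also deposited FPKM, per the file headers; 0.0001 stood there for 0 and was read as 0.

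Counts of the 6 libraries of 12 h and 3 h were tested with edgeR 4.0.16 (R 4.3.3): quasi-likelihood, TMM scaling, a mean per duration, no block, two-sided, Benjamini-Hochberg adjustment over 15685 genes. The biological coefficient of variation was 12.0%. SE is the absolute log2 fold change divided by the square root of F. Replicate pairs differed beyond sampling noise (chi-square per degree of freedom 3.98 to 7.71), so none was treated as a repeat deposit.

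The genes compared and the 58 lists (patterns on gene descriptions) were chosen with earlier results of these data known. Genes named are the 12 largest rises and falls in log2(FPKM + 1) among described, called genes whose higher group averaged 5 FPKM or more and whose groups did not overlap, the 2 largest of each list and direction, the 5 most abundant that changed 2-fold each way, and all tested clock and cold regulator genes; the text gives a selection of these 273. Marker genes at or near 0 and the clock and cold genes not tested were named besides. Alternatives were other scalings, filters, pseudocounts, DESeq2 1.42.0, limma 3.58.1, counts per fragment, all 12 libraries, a block and leaving out each library; the filter of 1 FPKM in both groups was added after the data were seen. Promoter motifs were not analysed here. Plots were drawn with matplotlib 3.10.9.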

Additional observations from a re-analysis of the deposited data

How the results depend on the processing

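Between 7642 and 10330 genes changed under the other settings, against 10019 as reported (10569 had an unadjusted p below 0.05), and no gene called under both reversed its direction. Changes of at least 2-fold numbered 1094 with limma on log2(FPKM + 5), a scale that shrinks low genes, and 1883 among the 11131 genes with a mean of 5 FPKM; 3072 were reported. Leaving out each library in turn gave 9104 to 9714 changed genes, 4522 to 4837 upward, 4570 to 4896 downward and 2999 to 3167 of at least 2-fold. Replicate numbers did not pair the samples (correlations of deviations for equal numbers 0.014, -0.094 and 0.095); with a replicate block 9866 genes changed. Of the 263 named genes that changed, 12 lost the call under some setting, 8 of them on leaving out 1 library. Genes near 0 that were not called changed sign: ICE1 (CsaV3_3G027730), ELF4-LIKE 4 (CsaV3_1G040820) and DREB2C (CsaV3_6G002010) had log2 fold changes of -0.02, -0.02 and -0.03 with library totals, -0.00, -0.01 and -0.01 with upper quartile scaling, and with limma -0.02, -0.01 and -0.02 (pseudocount 0.1), -0.01, -0.01 and -0.02 (1) and -0.01, -0.01 and -0.01 (5). Without single libraries lt101.2-like (CsaV3_3G035580) ranged over -0.14 (without 12 h library 2) to 0.45, ICE1 was at -0.07 without 12 h library 2, and ELF4-LIKE 4 ranged over -0.03 (without 3 h library 3) to 0.12. Of 2436 list counts, 49 moved over 1.5 times. Low counts limit genes near 1 FPKM.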
